A study of Mus musculus with 12 samples.

Results

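The insulin-like growth factor (IGF) axis was described in sorted cardiac Purkinje cells (PCs) and ventricular myocytes (VMs) through 8 genes, out of 48526 genes counted in each library. They were the ligands *Igf1* and *Igf2*, the receptors *Igf1r* and *Igf2r*, and the binding proteins *Igfbp3*, *Igfbp4*, *Igfbp5* and *Igfbp7*, matched to their Ensembl identifiers by symbol. *Igf1* was picked because it was lower in both *Ncam-1* KO fractions, so its values between genotypes are a description and carry no test. The other 7 genes were taken as further members of the same axis.

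IGF1 and IGF2 are secreted growth factors that signal mainly through the IGF1 receptor, a tyrosine kinase that passes the signal to the PI3K and AKT and the RAF and ERK arms. The IGF2 receptor, also the cation-independent mannose 6-phosphate receptor, has no kinase: it carries lysosomal enzymes and removes IGF2 from the cell surface. IGF-binding proteins hold the ligands outside the cell and lengthen or limit their action, and proteases release the ligand from them. In the adult heart the axis is known for its part in cardiomyocyte growth and survival, and much of the ligand and binding protein RNA of the heart is made by non-myocytes.

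PCs are the fast-conducting myocytes at the end of the ventricular conduction system. The libraries came from adult mice, either *Ncam-1* WT or homozygous *Ncam-1* KO, a germline deletion of this adhesion molecule. All of them, WT included, carried the *Cntn2-*EGFP reporter, a transgene that marks PCs with GFP. The knockout line was kept on C57BL/6 and the reporter on CD1, so the crossed mice were of mixed background. Perfused hearts were digested, the cells were incubated with 50 nM TMRM, a mitochondrial dye that marks cardiomyocytes in red, and red cells were sorted into PCs by the presence of GFP and VMs by its absence. Each combination of genotype and cell type gave 3 libraries, 12 in all, made from amplified RNA. The labels tie no library to a heart and do not say whether hearts were pooled, so p-values measure the spread between these libraries, which may be technical.

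Libraries held 13883427 to 42505705 counts on genes (median 21255262.5), of which mitochondrial genes took 79.0% to 91.3%, so that 1532393 to 6761356 counts remained for all other genes. *Ncam1* had 34 to 116 raw counts in WT PCs and 0 to 1 in KO PCs, while in VMs it had 0 to 9 in WT and 0 in every KO library. WT PC replicate 2 stood apart from the other libraries, with 63.9% of read pairs not aligned (18.8% to 24.7% elsewhere) and 11847 genes detected (13571 to 18129 elsewhere). In this library, relative to the other WT PC libraries, the median log2 ratio was 0.59 over 925 genes with under 2 kb of exons and -0.44 over 1922 genes with over 8 kb. *Cntn2* itself, whose regulatory region drives the reporter, reached 237 to 533 normalized counts in the WT PC libraries, and 452 in KO PC replicate 3. KO PC replicates 1 and 2 had only 38.7 and 49.2 normalized counts of *Cntn2*, against 2.22 to 8.99 in VMs, so these libraries had less *Cntn2* RNA than the other PCs, although the sort itself used GFP. A normalized count is the raw count divided by the library's effective size (TMM) and rescaled to the geometric mean of the 12 libraries.

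The promoters of *Igfbp5* and *Igfbp7* are shown because these were the members whose PC and VM libraries did not overlap in either genotype when all 12 libraries were set side by side. Each run is the 250 bases before the RefSeq transcription start in GRCm38.p6, 5′ to 3′ on the gene's own strand, which is the minus strand for both. Capitals mark GC boxes, GGGCGG on either strand. The last bases of the *Igfbp5* window lie within the first exon as GENCODE annotates it. The *Igfbp5* window is chr1:72874866-72875115 and the *Igfbp7* window is chr5:77408046-77408295.
Igfbp5: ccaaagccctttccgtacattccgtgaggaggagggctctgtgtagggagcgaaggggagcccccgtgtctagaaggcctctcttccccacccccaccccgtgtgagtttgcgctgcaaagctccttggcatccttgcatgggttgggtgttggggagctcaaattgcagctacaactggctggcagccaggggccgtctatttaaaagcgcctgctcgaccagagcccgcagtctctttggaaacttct
Igfbp7: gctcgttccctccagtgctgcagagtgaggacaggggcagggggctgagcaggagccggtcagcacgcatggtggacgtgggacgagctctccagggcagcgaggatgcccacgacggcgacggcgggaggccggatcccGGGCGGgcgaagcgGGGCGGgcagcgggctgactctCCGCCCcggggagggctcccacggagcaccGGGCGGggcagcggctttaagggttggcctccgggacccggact

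The *Igfbp7* window was 74% G and C and held 4 GC boxes, 3 as GGGCGG and 1 as its reverse complement. The *Igfbp5* window was 58.8% G and C and held none. Neither window held a CCAAT box (CCAAT) or a TATA box (TATAAA), both searched on both strands. Only these exact letters were searched, and variants such as the run tatttaa toward the end of the *Igfbp5* window were not counted. Over all 32851 RefSeq windows of this length the median was 52.4% G and C, and 32.7% held a GC box, 33.8% a CCAAT box and 12.4% a TATA box. The *Igfbp3* window held none of these motifs. A match is a run of letters and not a bound site. No binding or chromatin measurement was analysed here.

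In WT PCs the most abundant members per kilobase of exonic length were *Igfbp5* at 73.1 ± 19.1 normalized counts per kb, *Igf2r* at 69.6 ± 27.4 and *Igfbp7* at 63.5 ± 14.4 (SD, n = 3). These 3 could not be told apart by their libraries, and all of them lay above the next member. *Igf2* followed at 12.1 ± 2.69 per kb, *Igfbp3* at 10.3 ± 10.3, *Igf1r* at 8.33 ± 5.59 and *Igf1* at 6.41 ± 2.27. Those 4 overlapped with their neighbours in the order, and *Igfbp4* came last at 1.64 ± 1.19, below every *Igf1* library. KO PCs kept *Igf2r*, *Igfbp7* and *Igfbp5* on top, at 87.7 ± 18.8, 77.8 ± 22.4 and 76.2 ± 21.3 per kb. Here *Igf1*, at 2.14 ± 0.477 per kb, lay below every library of *Igf2* (8.66 ± 7.67) and above every library of *Igfbp4* (0.918 ± 0.647).

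VMs had a different top of the order, because the receptor *Igf2r* stood alone. It was at 97.9 ± 14.7 per kb in WT VMs and 98.3 ± 3.39 in KO VMs (SD, n = 3), above every library of the next member. In WT VMs *Igfbp7* (30.5 ± 11.2 per kb) and *Igfbp5* (28.1 ± 4.80) overlapped each other and lay above *Igf1r* (9.73 ± 1.34). In KO VMs *Igfbp5* was at 22.9 ± 1.54 per kb, while *Igfbp7* at 15.3 ± 13.6 overlapped with *Igf1r* at 9.73 ± 0.266. The ligands were low in both, with *Igf2* at 4.01 ± 1.92 and *Igf1* at 3.57 ± 0.635 per kb in WT VMs, and 2.13 ± 1.33 and 1.69 ± 1.12 in KO VMs. Within each genotype the 2 ligands could not be placed in order in VMs. These are levels of RNA per exonic length and say nothing of protein.

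**Figure D1:**
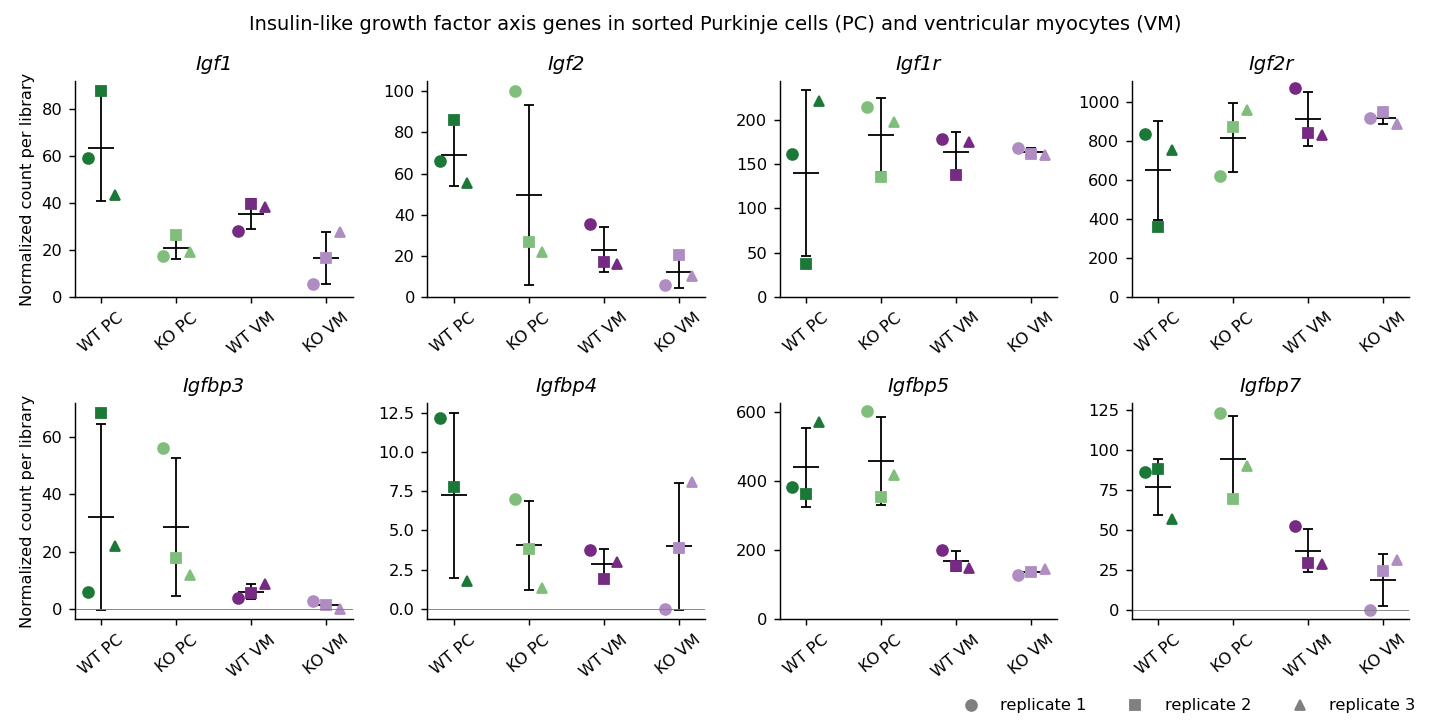
Normalized counts (vertical axes, each with its own linear scale) of the 8 genes in every library, by group. Symbols mark replicates 1 to 3, the short horizontal line is the mean and the bar the SD (n = 3). *Igfbp5* in PCs sits between 355 and 601 and in VMs between 129 and 202, and *Igf1* in KO libraries does not exceed 27.8.

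The comparison of PCs with VMs asks which members of the axis distinguish the conduction cells from the working myocardium. The rule that picked *Igf1* did not use this contrast, but the members were chosen with earlier results of these data known. *Igfbp5* and *Igf2* were higher in PCs, the latter with a call that was lost in 9 of the 12 fits that left out 1 library, and neither receptor passed the test in either direction. Over both genotypes, with genotype in the model, 7 of the 8 members passed the filter of a mean normalized count above 5 (*Igfbp4* did not). *Igfbp3* passed it only through its PC libraries, with a mean of 30.4 in PCs and 3.73 in VMs, so that being tested already required a difference and it is left out of the counts that follow. Of the other 6, 2 were higher in PCs at an adjusted p under 0.05 in edgeR's quasi-likelihood test, namely *Igfbp5* and *Igf2*, where 1.26% of all 11323 genes tested were called in that direction. At an unadjusted p under 0.05, 3 were higher (8.72% of all genes), with *Igfbp7* as the third, and 0 were lower. The libraries of *Igfbp5* and *Igfbp7* did not overlap between 6 PC and 6 VM libraries, as was the case for 1.4% of all genes in that direction. The median log2 fold change of the 6 members was 1.08, beside 0.02 over all genes.

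Within each genotype the same direction was seen with less certainty. In WT, all 8 members passed the filter, 4 had p under 0.05 and were higher in PCs (5.14% of 11822 genes), namely *Igf2*, *Igfbp3*, *Igfbp5* and *Igfbp7*, and 0 passed the adjustment in edgeR (0.11% of genes). DESeq2's Wald test passed 1 of them in WT, *Igfbp5*. The PC and VM libraries of 4 members did not overlap in WT, the PC libraries being higher (7.29% of genes), namely *Igf1*, *Igf2*, *Igfbp5* and *Igfbp7*. In KO, 7 members passed the filter, *Igfbp3* again only through its PC libraries. Of the other 6, 3 had p under 0.05 and were higher in PCs (7.11% of 10779 genes), namely *Igf2*, *Igfbp5* and *Igfbp7*, and 1, *Igfbp5*, passed the adjustment (0.863% of genes). There the libraries of *Igf2*, *Igfbp5* and *Igfbp7* did not overlap (8.66% of genes). *Igfbp4* passed it in WT through its PC libraries. Without these genes the median log2 fold change of the members was 1.02 in WT and 1.02 in KO, beside -0.00 and 0.01 over all genes.

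**Figure D2:**
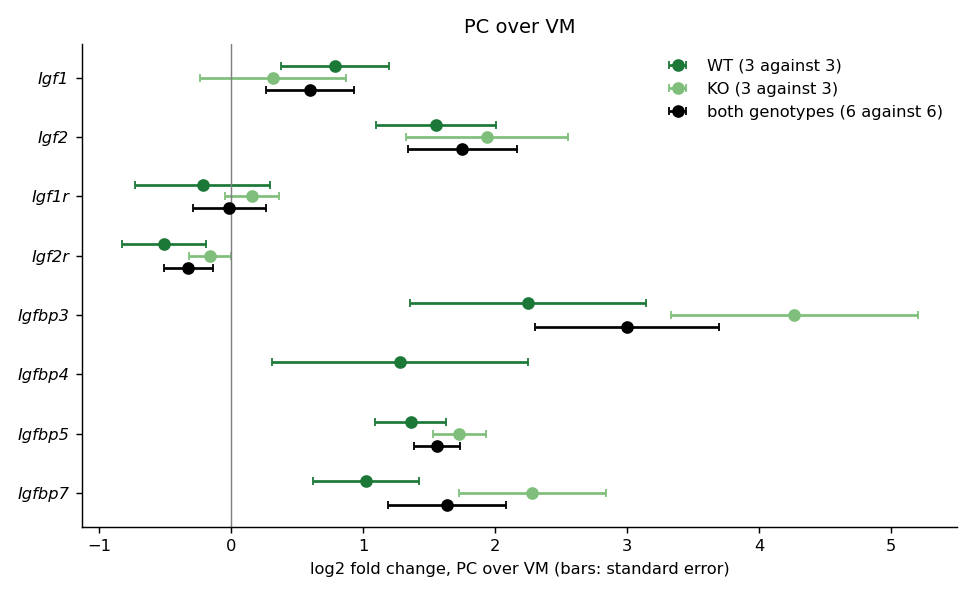
Log2 fold changes of PCs over VMs (horizontal axis) with their standard errors for the members tested, in WT, in KO and over both genotypes. *Igf2*, *Igfbp3*, *Igfbp5* and *Igfbp7* lie to the right of 0 in all 3 fits, *Igf1r* lies near 0 and *Igf2r* to its left.

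*Igf1* (ENSMUSG00000020053, chromosome 10 from 87858265 to 87937042 in GRCm38) codes for the main circulating and local growth ligand of the axis. In WT PCs its normalized counts were 59.3, 87.8 and 43.3 in replicates 1 to 3, and in KO PCs they were 17.6, 26.5 and 19.4. In WT VMs they were 28.1, 39.5 and 38.5, and in KO VMs 5.66, 16.7 and 27.8. Each KO library was below each WT library of the same cell type, and also below each WT library of the other, although the margin was thin: the highest KO value was 27.8 and the lowest WT value 28.1, both in VMs. This arrangement is what the gene was picked for. KO PCs had on average 33.3% of the WT level and KO VMs 47.2%, and the fitted log2 fold changes were -1.56 in PCs and -1.06 in VMs. A gap of this kind in the same direction was found in 4.7% of genes in PCs, 5.03% in VMs and 0.284% in both, and over all 6 KO and 6 WT libraries in 0.132%. Counts were small, from 4 to 136 raw counts per library.

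Markers of other cell types moved with some of the *Igf1* values and against others. The summed normalized counts of 10 macrophage markers were 436 to 1266 in WT PCs and 384 to 420 in KO PCs, with no overlap. Single markers were mixed, as 3 of the 9 tested were higher in KO PCs. WT PC replicate 2 was highest in both the macrophage sum and *Igf1*, and the other WT PC sums were 436 and 444. Without that library the log2 fold change of *Igf1* in PCs was -1.29. In VMs, KO replicate 1 was lowest in *Igf1* and also in the fibroblast (65.1), endothelial (69.3), macrophage (19.8) and smooth muscle (250) sums. Without it the log2 fold change in VMs was -0.67, and without KO VM replicate 3 it was -1.63. In WT VMs, replicate 1 had the highest fibroblast (384.5), endothelial (520.5), macrophage (236.3) and smooth muscle (968.7) sums but the lowest *Igf1* (28.1). Among KO PCs, replicate 1 had the highest fibroblast (967), endothelial (1589) and smooth muscle (2391) sums but the lowest *Igf1* (17.6). The part of other cells in the *Igf1* values was not tested, and in bulk samples fewer cells of a type and less RNA per cell cannot be told apart.

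Between cell types *Igf1* did not pass the test. PCs had 1.79 times the VM level in WT, a log2 fold change of 0.78 (SE 0.41, adjusted p = 0.799 by edgeR), and the WT libraries did not overlap, since the lowest PC value was 43.3 and the highest VM value 39.5. In KO the difference was 0.32 (SE 0.55, adjusted p = 0.920 by edgeR), with overlapping libraries. It was -0.09 without KO VM replicate 1. Over both genotypes the log2 fold change was 0.60 (SE 0.34, adjusted p = 0.531 by edgeR). The exact permutation test over the 400 relabellings of cell type within genotype gave a two-sided p of 0.07, where 0.005 is the smallest possible.

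*Igf2* (ENSMUSG00000048583, chromosome 7 from 142650766 to 142666816), the imprinted ligand best known from fetal growth, was higher in PCs than in VMs. Its normalized counts were 66.3, 85.8 and 55.5 in WT PCs, and 35.6, 16.9 and 16.3 in WT VMs, with no overlap. In KO PCs they were 100.2, 26.5 and 22.1, and in KO VMs 5.66, 20.5 and 10.4. Replicate 1 of the KO PCs was far above the other KO PC libraries, which lay only just above the highest KO VM library. The log2 fold change of PCs over VMs was 1.75 over both genotypes (SE 0.41, adjusted p = 0.0486 by edgeR), 1.55 in WT (SE 0.45, adjusted p = 0.60) and 1.94 in KO (SE 0.62, adjusted p = 0.198). The exact permutation p was 0.005, the smallest possible. The adjusted p over both genotypes crossed 0.05 in 9 of the 12 fits that left out 1 library, rising to 0.142 without WT VM replicate 2, and the KO difference fell to 0.97 without KO PC replicate 1. Counted reads of *Igf2* were few, 4 to 152 per library.

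Between genotypes *Igf2* did not pass the test, although its mean was lower in KO in both cell types. The log2 fold change was -0.52 in PCs (SE 0.59, adjusted p = 0.993 by edgeR) and -0.89 in VMs (SE 0.50, adjusted p = 0.959). KO PC replicate 1, the highest library of all, sat against the other KO PCs: without it the PC difference was -1.48 (unadjusted p = 0.0232, adjusted p = 0.999 by edgeR). In VMs the difference was -1.45 without KO VM replicate 2 (unadjusted p = 0.0258, adjusted p = 0.719 by edgeR). Over both cell types it was -0.68 (SE 0.41), and the exact permutation p was 0.09. The overlapping antisense gene *Igf2os* had 0 counts in every library.

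The kinase receptor *Igf1r* (ENSMUSG00000005533, chromosome 7 from 67952827 to 68233668) was at a like level in all groups, apart from WT PC replicate 2. Its normalized counts were 161.7, 37.1 and 220.7 in WT PCs, 214.4, 135.1 and 197.1 in KO PCs, 178.2, 137.4 and 174.5 in WT VMs, and 168.3, 161.8 and 159.8 in KO VMs. WT PC replicate 2 was the lowest of the 12, and every other library lay between 135.1 and 220.7. PCs over VMs gave -0.01 over both genotypes (SE 0.28, adjusted p = 0.992 by edgeR), and KO over WT gave 0.34 in PCs (SE 0.52) and -0.01 in VMs (SE 0.18). Without WT PC replicate 2 the first of these was 0.19 and the PC genotype difference was -0.08. *Igf1r* has 16.791 kb of exons, the longest of the 8 genes, and that library was low over long genes in general. The part of transcript length in its *Igf1r* value was not tested.

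*Igf2r* (ENSMUSG00000023830, chromosome 17 from 12682406 to 12769664), the scavenging receptor, was the member with the highest counts, and its level was on average lower in PCs than in VMs without passing the test. *Igf2r* stood at 832.6, 357.0 and 754.1 in the WT PCs and at 620.5, 871.2 and 956.9 in the KO PCs. WT VMs had 1069, 836.7 and 827.6, and KO VMs 916.5, 946.4 and 883.4. WT PC replicate 2 was again the lowest library, followed by KO PC replicate 1, and the PC and VM ranges overlapped in both genotypes. The log2 fold change of PCs over VMs was -0.32 (SE 0.18, adjusted p = 0.533 by edgeR), and -0.18 without WT PC replicate 2. The exact permutation p was 0.075. KO over WT was 0.33 in PCs (SE 0.34) and 0.00 in VMs (SE 0.14), neither past the test.

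*Igfbp5* (ENSMUSG00000026185, chromosome 1 from 72857932 to 72874884), a binding protein held in the extracellular matrix that is known from muscle and bone, gave the clearest difference of the axis. Its normalized counts were 383.6, 362.8 and 570.9 in WT PCs and 601.1, 354.8 and 417.7 in KO PCs. In VMs they were 201.6, 155.3 and 148.7 in WT and 128.7, 136.1 and 147.0 in KO. Every PC library was above every VM library, the closest being 354.8 in a KO PC and 201.6 in a WT VM. PCs had 2.93 times the VM level, a log2 fold change of 1.56 (SE 0.17, adjusted p = 3.30e-04 by edgeR), and its p ranked 3 among the 11323 genes tested. In KO it ranked 1 among 10779 genes, and the log2 fold change was 1.73 (SE 0.20, adjusted p = 0.00188 by edgeR). The exact permutation p was 0.005, the smallest possible.

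In WT alone the *Igfbp5* difference was of a similar size but did not pass the adjustment, at 1.36 (SE 0.27, unadjusted p = 7.07e-04, adjusted p = 0.218 by edgeR). WT PC replicate 2 was the lowest WT PC library here too. Without it the log2 fold change was 1.49 and the adjusted p 0.00446 by edgeR. The KO PC libraries with low *Cntn2*, replicates 1 and 2, were the highest and the lowest KO PC libraries in *Igfbp5*, and without replicate 1 the KO difference was 1.49 (adjusted p = 0.00673 by edgeR). Over both genotypes the difference passed the adjustment in all 12 fits without 1 library, between 1.43 and 1.64.

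Between genotypes *Igfbp5* did not pass the test in either cell type. In PCs the log2 fold change of KO over WT was 0.05 (SE 0.29, adjusted p = 0.995 by edgeR), and it turned to -0.17 without KO PC replicate 1. In VMs all 3 KO libraries were below all 3 WT libraries, by a narrow margin of 147.0 against 148.7, an arrangement found in 5.03% of genes there. The log2 fold change in VMs was -0.30 (SE 0.18, adjusted p = 0.959 by edgeR). The difference between the genotype effects was 0.35 (SE 0.34, adjusted p = 0.999 by edgeR).

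*Igfbp7* (ENSMUSG00000036256, chromosome 5 from 77349240 to 77408041), a related protein that binds IGFs weakly and is known from vessel walls, also had every PC library above every VM library. *Igfbp7* stood at 85.9, 87.8 and 56.6 in the WT PCs and at 123.0, 69.4 and 89.5 in the KO PCs. WT VMs had 52.5, 29.2 and 28.8, and KO VMs 0, 24.4 and 31.3. The lowest PC library, at 56.6, was just above the highest VM library, and KO VM replicate 1 had no read on the gene, although it had 198 counts on *Polr2b*, a gene on the opposite strand that shares 85 bases with *Igfbp7*. The log2 fold change of PCs over VMs was 1.64 over both genotypes (SE 0.45, adjusted p = 0.0915 by edgeR), 1.02 in WT (SE 0.40, adjusted p = 0.744) and 2.28 in KO (SE 0.56, adjusted p = 0.0758). The exact permutation p was 0.005, the smallest possible. Without KO VM replicate 1 the adjusted p over both genotypes was 0.0377 and the log2 fold change 1.31, and without WT PC replicate 2 they were 0.0199 and 1.62 (edgeR). Those were the only 2 of the 12 fits without 1 library that had an adjusted p under 0.05. Over all 18 alternatives (edgeR or DESeq2) the adjusted p reached up to 0.218. Between genotypes the log2 fold change was 0.29 in PCs (SE 0.38) and -0.94 in VMs (SE 0.57), neither past the test, and the VM value was -0.40 without KO VM replicate 1.

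*Igfbp3* (ENSMUSG00000020427, chromosome 11 from 7206086 to 7213923), the main carrier of IGFs in serum, had low counts and a wide spread in PCs. Its normalized counts were 6.10, 68.3 and 22 in WT PCs, 56.2, 17.7 and 12 in KO PCs, and 3.75, 5.65 and 8.88 in WT VMs. KO VMs had 2, 1 and 0 raw counts, all at or under the floor of 3 counts per library. KO PCs were therefore at least 7.43-fold higher than KO VMs (at least 3.85-fold without KO PC replicate 1, the highest). The mean of WT VMs was 1.58 times the floor of 3.86 normalized counts in KO VMs. WT VM replicate 1 (3.75) lay under that floor. The gene did not pass the filter between genotypes in VMs, so that difference was not tested. The fitted log2 fold change of PCs over VMs was 3.0 over both genotypes (SE 0.70, adjusted p = 0.0456 by edgeR) and 2.25 in WT (SE 0.89, adjusted p = 0.744), where the libraries overlapped. In KO edgeR gave an adjusted p of 0.0417. Over both genotypes and in KO the gene entered the test only through its PC libraries, so these p-values are no support for a difference. WT PC replicate 2 carried the highest value, and the WT difference was 1.14 without it (adjusted p = 0.651 by edgeR). The adjusted p over both genotypes was above 0.05 in 9 of the 12 fits that left out 1 library, up to 0.114 without WT VM replicate 2. In KO it was above 0.05 in 5 of 6, up to 0.215 without KO PC replicate 1.

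Between genotypes *Igfbp3* in PCs differed by -0.13 (SE 0.89, adjusted p = 0.995 by edgeR), and the sign rested on single libraries, with 0.96 without WT PC replicate 2 and -1.03 without KO PC replicate 1. *Igfbp4* (ENSMUSG00000017493, chromosome 11 from 99041244 to 99054392), a binding protein that mostly limits IGF action and is cut by the protease PAPPA, was near the floor of detection. It had 0 to 28 raw counts per library, with 28 in WT PC replicate 1 and at most 7 elsewhere. It passed the filter only in WT PCs against WT VMs (1.28, SE 0.97, adjusted p = 0.839 by edgeR) and in KO PCs against WT PCs (-0.93, SE 1.14, adjusted p = 0.993). In each of these it passed through the higher group alone. No difference in *Igfbp4* was detectable at this depth.

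The comparison of KO with WT asks what loss of NCAM-1 does to the axis in each cell type. Beside *Igf1*, which was chosen on this contrast, 0 members passed the test in either cell type. In PCs all 7 other members were tested and 0 had p under 0.05, where 3.22% of 11754 genes did, with log2 fold changes from -0.93 to 0.34. In VMs 5 were tested and 0 had p under 0.05, where 5.12% of 10737 genes did. There 4 of the 5 were lower in KO, as were 5692 of all genes, and 1 of the 4 was *Igf1r* at only -0.01. Over both cell types 6 were tested with 0 at p under 0.05 (5.03% of 11323 genes). DESeq2's Wald test also gave 0 at p under 0.05 in each of the 3. The medians of the other members, leaving out *Igfbp4*, were 0.17 in PCs, -0.30 in VMs and -0.19 over both, beside -0.00, -0.02 and -0.02 over all genes. The KO effect in PCs minus that in VMs was above 0 in all 6 of the other members tested, from 0.32 to 2.03. It was above 0 in 5768 of all 11323 genes. Of the 6, 0 had p under 0.05 in edgeR or in DESeq2 (2.9% of genes in edgeR). The standard errors of these differences were 0.34 to 1.44. The largest difference was that of *Igfbp3*, which passed the filter only through its PC libraries and whose KO VM libraries were all at the floor.

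**Figure D3:**
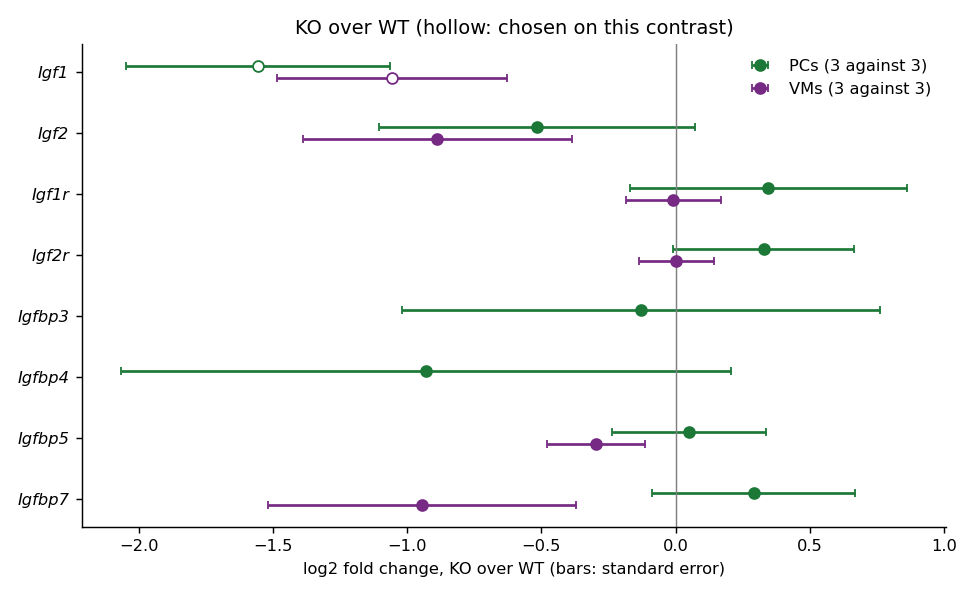
Log2 fold changes of KO over WT (horizontal axis) with their standard errors in PCs and in VMs, for members that passed the filter. The hollow points of *Igf1*, at -1.56 and -1.06, are the values it was chosen on, and their bars are no test. The bars of the other members all cross 0 in PCs, and in VMs those of *Igf2*, *Igfbp5* and *Igfbp7* lie below it.

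Markers of non-myocytes ran in parallel with the members that were higher in PCs. The mean summed count of 7 fibroblast markers was 3.96 times higher in PCs than in VMs in WT and 3.9 times in KO, that of 7 endothelial markers 2.04 and 4.42 times, that of 10 macrophage markers 4.47 and 4.5 times, and that of 7 smooth muscle and pericyte markers 1.62 and 3.69 times. None of these sums overlapped between PCs and VMs within a genotype. Single genes weighed heavily in some of them. In WT PCs *Rgs5* gave 779 of a mean smooth muscle and pericyte sum of 1210, and *Dcn* 748 of a mean fibroblast sum of 1140. Every marker tested in these lists was higher in PCs in both genotypes, which was 6 of 6 for fibroblasts, 7 of 7 for endothelial cells, 6 of 6 for smooth muscle cells and pericytes, and 8 of 8 in WT and 7 of 7 in KO for macrophages. Some of these markers had a VM mean under 5 and passed the filter only through PC libraries, so that being tested already required that direction. In KO they included *Col1a1* (means of 15.6 in PCs and 4.07 in VMs), *Egfl7* (23.2 and 4.71), *Cd163* (11.6 and 2.91) and *Pdgfrb* (44.5 and 2.91). These counts of markers are therefore no support for a difference. *Cnn1* was not tested in WT, with a mean of 1.60 in PCs and 4.38 in VMs. The fibroblast marker *Tcf21* was at the floor in WT PCs and in VMs, the macrophage markers *Cd68* and *C1qa* were at the floor in VMs, and *Adgre1* and *Cnn1* were at 0 in KO VMs. The defining markers of cardiomyocytes summed to 216200 to 274900 normalized counts across the libraries, far above any of these lists.

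In some groups the library highest in a marker list was also the highest in these members, and in others it was not. Among WT PCs, replicate 2 had the highest fibroblast (1672) and macrophage (1266) sums and the most *Igf2*, *Igfbp3* and *Igfbp7*, while replicate 3 had the most *Igfbp5* (570.9) and the lowest fibroblast sum (706). Replicate 2 was also high over genes with under 2 kb of exons in general, and *Igfbp7* has 1.209 kb. The part of transcript length in the values of replicate 2 was not tested. The highest endothelial (791) and smooth muscle and pericyte (1366) sums of the WT PCs were in replicate 1. Among KO PCs, replicate 1 had the highest endothelial sum (1589), smooth muscle and pericyte sum (2391) and fibroblast sum (967), and also the most *Igfbp5*, *Igf2*, *Igfbp3* and *Igfbp7*. In VMs, WT replicate 1 had the highest endothelial (520) and fibroblast (384) sums and the most *Igf2*, *Igfbp5* and *Igfbp7*. That library had the least *Igfbp3* of the WT VMs (3.75). KO VM replicate 2 had the highest fibroblast (317), endothelial (316), macrophage (133.5) and smooth muscle (684) sums and the most *Igf2*. The most *Igfbp5* (147.0) and *Igfbp7* (31.3) of the KO VMs were in replicate 3. The summed markers of PCs were 571 to 1299 in WT PCs, 169 to 944 in KO PCs and 46.1 to 73.5 in VMs. Whether RNA of non-myocytes gave part of the PC level of *Igf2*, *Igfbp3*, *Igfbp5* and *Igfbp7* was not tested.

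**Figure D4:**
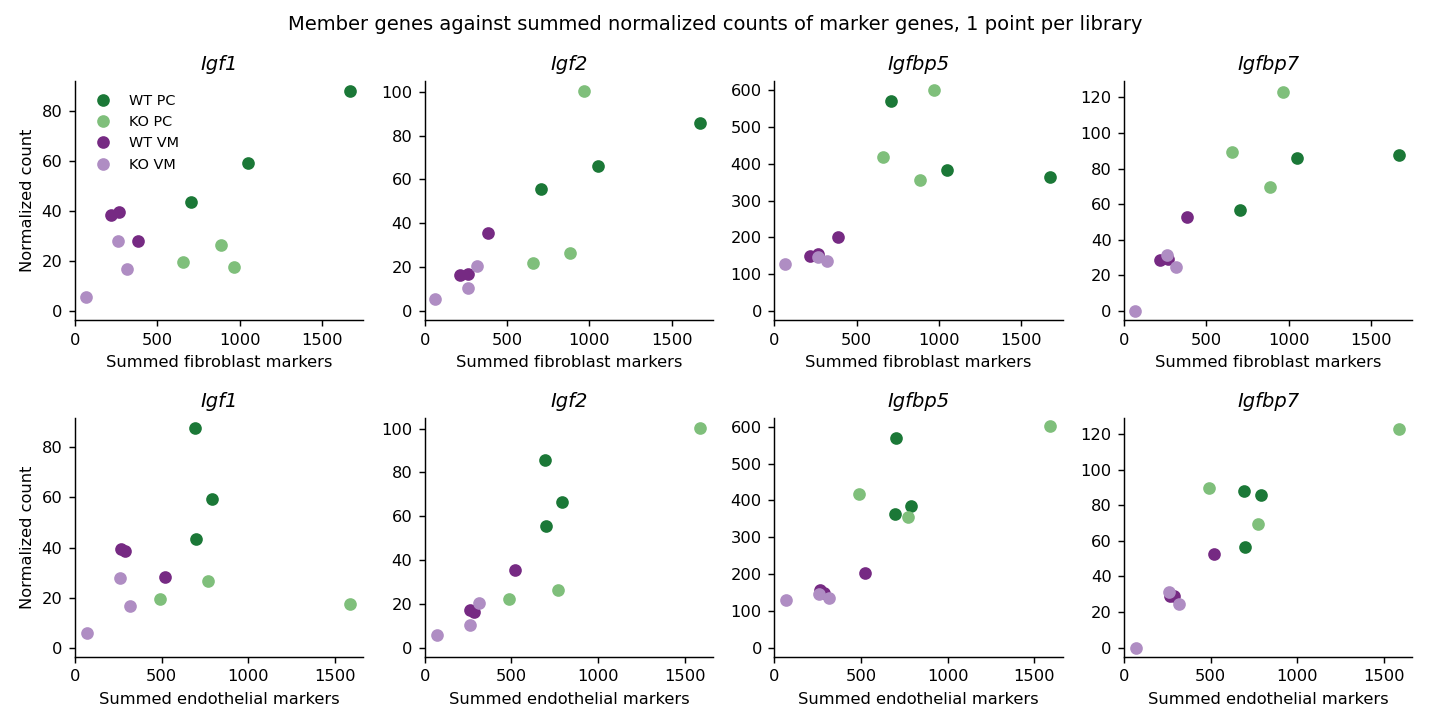
Normalized counts of *Igf1*, *Igf2*, *Igfbp5* and *Igfbp7* (vertical axes) against the summed normalized counts of fibroblast markers (upper row) and endothelial markers (lower row), 1 point per library. *Igf2* and *Igfbp7* tend to be higher in libraries with higher sums, *Igfbp5* forms a PC cloud from 354.8 upward and a VM cloud up to 201.6, as the fibroblast sums do (657 to 1672 and 65.1 to 384), and *Igf1* in KO PCs stays low at fibroblast sums of 657 to 967.

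The other genes of the pathway were 54, from ligand carriers to the kinases below the receptor. Of these, 48 passed the filter in WT PCs against WT VMs, 46 in KO PCs against KO VMs and 47 over both genotypes, and 0 passed the adjustment in edgeR in any comparison. DESeq2's Wald test passed 1 over both genotypes, 2 in KO, of which *H19* was one, and 0 in the other comparisons. Of all genes, in either direction, edgeR passed 0.11% in WT, 0.872% in KO and 1.28% over both genotypes. Between genotypes its share was 0.0373% in VMs, 0.0353% over both cell types and 0% in PCs and for the difference of the effects. The share of all genes passed by DESeq2 is not given here. Genes with a group mean of 5 or less on the lower side passed the filter only through the other group, so that being tested required a difference, and *H19*, *Igf2bp3*, *Igfbp6* and *Stc1* are given with that limit. At an unadjusted p under 0.05 over both genotypes 2 were higher in PCs and 1 was lower, where 8.72% of all genes were higher and 2.95% lower. Among the higher was *H19* (2.28, SE 0.75, adjusted p = 0.168), the imprinted noncoding neighbour of *Igf2*, with means of 22.6 in PCs and 4.37 in VMs. Without it 1 was higher. The lower one was *Insr*, the insulin receptor, at -0.24 (SE 0.11, adjusted p = 0.370). The median over the 45 genes that did not rest on the higher group alone was -0.09, beside 0.02 over all genes and 1.08 over the members.

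In the arms below the receptor 0 genes passed the adjustment between cell types (edgeR). All 21 genes of the PI3K, AKT and mTOR arm were tested, of which 7 were above 0 and 14 below over both genotypes, with a median of -0.09. The 8 receptor adaptors had a median of -0.21 with 1 above 0, and the 5 genes of the RAF, MEK and ERK arm one of -0.13, with 0 at an unadjusted p under 0.05 in either list (edgeR). *H19* was 0 to 27 normalized counts in WT PCs, 7.58 to 52.7 in KO PCs, 2.22 to 11.2 in WT VMs and 0 to 6.42 in KO VMs, low throughout. *Insr* was far more abundant, with 1118 to 1401 normalized counts in PCs and 1327 to 1558 in VMs. Per kilobase *Insr* stood at 111.1 in WT VMs, against 9.73 for *Igf1r* and 97.9 for *Igf2r*. *Ghr*, the growth hormone receptor upstream of *Igf1*, was at 158.8 per kb in WT VMs and at 133.7 in WT PCs, and 0 of the 5 genes of growth hormone input had p under 0.05 over both genotypes (edgeR).

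Within genotypes other pathway genes reached an unadjusted p under 0.05, all without passing the adjustment (edgeR). In WT 2 of 48 were higher in PCs (5.14% of all genes) and 1 lower (1.22% of all genes). The higher ones were *Igfbp6* (3.59, SE 1.34, adjusted p = 0.719), a binding protein that prefers IGF2, and *Stc1* (3.0, SE 1.06, adjusted p = 0.692), a stanniocalcin that inhibits the PAPPA proteases. The lower one was *Socs2*, a feedback inhibitor of growth hormone signalling, at -0.70 (SE 0.29, adjusted p = 0.762). Both higher genes entered the test through WT PCs alone, and without them 0 of 46 were higher. WT PC replicate 2 gave the 72.2 normalized counts at the top of *Igfbp6*, against 4.05 at the lowest WT PC. In KO 3 of 46 were higher (7.11% of all genes) and 2 lower (2.6% of all genes), among them *H19* (3.08, SE 0.83) and *Igf2bp3* (1.63, SE 0.76), a protein that binds *Igf2* RNA, and the kinases *Rps6kb1* (-0.46, SE 0.20) and *Mtor* (-0.34, SE 0.16). *H19* and *Igf2bp3* entered through KO PCs alone, and without them 1 of 44 was higher.

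Between genotypes the pathway genes gave a few unadjusted differences in VMs. There 2 of 45 were higher in KO (1.87% of all genes) and 4 lower (3.25% of all genes), and 0 passed the adjustment in edgeR. Among the higher was *Mtor* (0.44, SE 0.15, adjusted p = 0.931), the kinase at the end of the AKT arm. Among the lower were *Socs2* (-0.40, SE 0.18), *Rheb* (-0.36, SE 0.17), which activates mTOR, and *Igf2bp2* (-1.11, SE 0.51), all with an adjusted p of 0.931. *Mtor* had 323 to 362 normalized counts in KO VMs and 233 to 272 in WT VMs. In PCs 1 of 48 was lower in KO (2.7% of all genes), *Igfbp6* at -3.29 (SE 1.37, adjusted p = 0.993), which entered through WT PCs alone and again drew on replicate 2. Without it 0 of 47 had p under 0.05 (edgeR). Over both cell types 2 had an unadjusted p under 0.05 and were higher in KO (1.66% of all genes), among them *Mtor* (0.32, SE 0.13), and *Rheb* (-0.32, SE 0.13) was lower (3.36% of all genes). The genotype effect differed between cell types at this level in *Socs2* alone of the 47 tested, by 0.80 (SE 0.36, adjusted p = 0.999 by edgeR), where 1.03% of all genes did so in that direction. *Igfbp1*, *Igfbp2*, *Pappa2*, *Insrr* and *Igf2bp1* had 0 counts in every library.

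**Figure D5:**
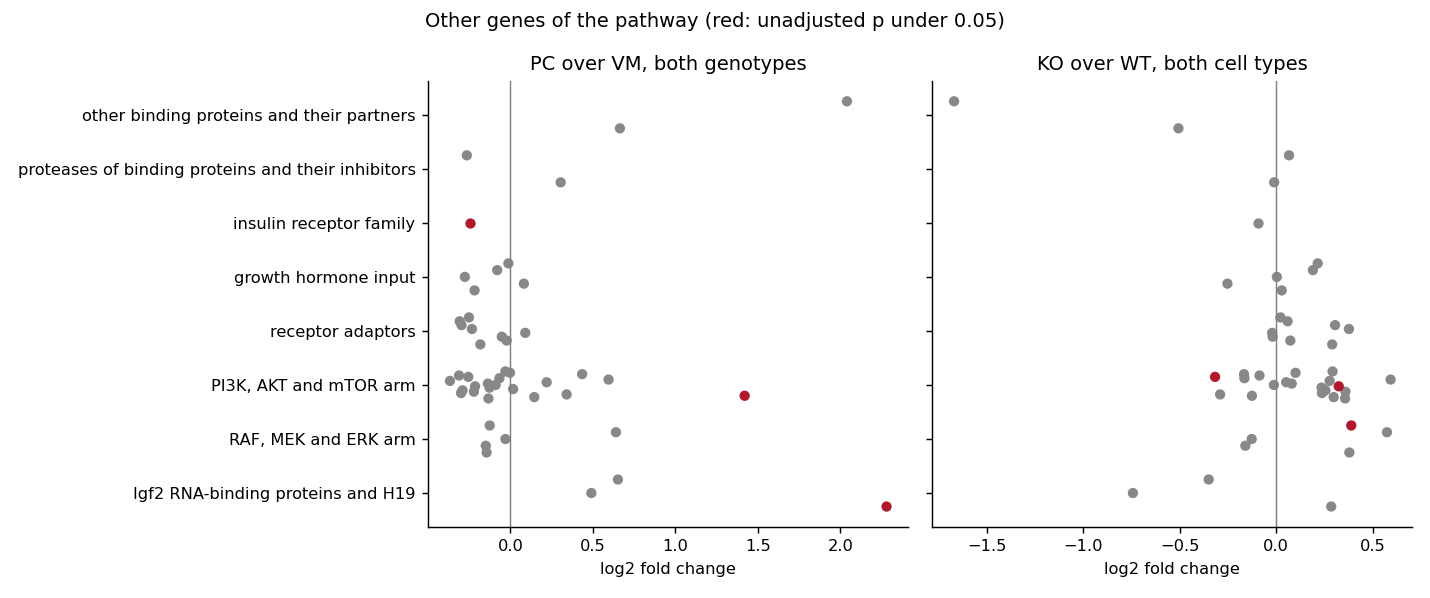
Log2 fold changes (horizontal axes) of the other pathway genes that passed the filter, by list, for PCs over VMs across both genotypes (left) and KO over WT across both cell types (right). Each point is 1 gene, red where the unadjusted p is under 0.05. Most of the 47 genes lie close to 0 in both panels, and *H19* lies farthest to the right in the left panel, at 2.28.

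Genes with a pattern most like that of each member were sought by Pearson's correlation of log2(normalized count + 2) over the 12 libraries, among 8099 other genes with a mean normalized count above 20. Libraries of a group share a genotype and a sort gate, so the correlations are descriptions. *Igf1* was most like *Rida* (r = 0.919), *Tctex1d2* (0.875) and *Arpc5l* (0.864), and its r with *Igf2* was 0.588. Among the genes most like *Igf2* were *Atp2b4* (0.952) and the endothelial marker *Emcn* (0.950). *Igfbp7* was most like *Fstl1* (0.971), *Fbn1* (0.962) and *Abca8a* (0.961), of which *Fbn1* codes for a matrix fibril protein. *Igfbp5* was most like *Eef1a1* (0.927), *Epb41l2* (0.925) and *mt-Tc* (0.922). The receptors ran with other genes, *Igf1r* with *Kmt2d* (0.977), *Hectd4* (0.976) and *Ptpn12* (0.972), and *Igf2r* with *Rnf144b* (0.971), *Dst* (0.970) and *Ostm1* (0.965). For *Igf1r* and *Igf2r* the Spearman correlations with these genes were lower, 0.720 to 0.811, and WT PC replicate 2 was the lowest library of both receptors. Among members, *Igf2* and *Igfbp5* had r = 0.814, and *Igfbp5* and *Igfbp7* 0.722.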

How the data were processed

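PC and VM libraries from *Ncam-1* WT and KO mice were compared, 3 per group, with groups and replicate numbers taken from the sample titles. The authors deposited raw counts of read pairs per gene for each library, without normalization. Per the labels, the authors aligned paired reads to mm10 with STAR 2.5.0c and counted them with HTSeq 0.6.0 against the GTF GRCm38.74. Whether counting used strand is not given in the sources used here, so reads of a gene and an overlapping gene on the other strand may not be told apart. The RNA was amplified without molecular identifiers, so counts are not independent molecules and floors cover counting error only. HTSeq's classes of pairs without a gene (40.0% to 73.6% of pairs) were left out.

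Counts were tested in R 4.3.3 with edgeR 4.0.16 (TMM, glmQLFit and glmQLFTest), for genes whose normalized counts averaged above 5 in the libraries of the fit, and p-values were adjusted by Benjamini-Hochberg across every gene tested. Comparisons of 2 groups used their 6 libraries, and those over both genotypes or both cell types used all 12, with the other factor as a covariate or an interaction. Fold changes are PC over VM and KO over WT. The SE of an edgeR log2 fold change is the absolute log2 fold change divided by the square root of that test's F statistic. Exact permutation tests took the mean of log2(normalized count + 2), with labels permuted within the other factor, for 8 members between cell types and 7 between genotypes. A library with 3 or fewer counts was at the floor, and folds against a group at the floor used 3 counts per library. Levels of different genes were compared per kilobase of exonic length (GENCODE M21, which lacks 468 of the identifiers). Promoters are RefSeq windows.

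The 8 members, the pathway lists, the marker lists and the tests were chosen with earlier results of these data known. All members are named. Other pathway genes are named if they had an unadjusted p under 0.05, at most 4 per direction and comparison, except those named for levels or counts of 0, which were chosen after their values were seen. For likeness, the 3 genes with the highest correlation are named. The single results of a few other genes that met these rules are not reported here. The alternatives tried were the Wald test of DESeq2 1.42.0, edgeR with DESeq2's size factors, filterByExpr, no filter, mitochondrial genes left out, a single fit of all 12 libraries, a block on replicate number, and each library left out in turn. The edgeR steps were tested on simulated data. Protein sequences were not used here.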

Additional observations from a re-analysis of the deposited data

How the results depend on the processing

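The higher *Igfbp5* in PCs held its direction and stayed under an adjusted p of 0.05 over both genotypes in all 18 alternatives (edgeR or DESeq2, adjusted p 3.12e-14 to 0.00311) and in KO in all 13 (up to 0.0401), but in WT it passed in only 4 of 13 (7.89e-04 to 0.999). Over both genotypes *Igf2* passed in 7 of 18 (1.03e-04 to 0.142), *Igfbp3* in 8 of 18 (8.70e-06 to 0.114) and *Igfbp7* in 4 of 18 (1.29e-05 to 0.218), and the cause was not tested. In the main fit *Igfbp3* entered the test only through its PC libraries, so its p-values are no support for a difference. Replicate numbers were taken from the titles. The source names number the WT libraries 1, 3 and 4, alike in PCs and VMs, so the joining of PCs to VMs is the same by either label and only that of KO to WT would differ. Numbers are shared between groups, but same-numbered libraries did not deviate together throughout: over 8100 genes, r was 0.207, 0.0813 and 0.15 between PCs and VMs in WT and -0.00956, 0.121 and 0.0185 in KO, and 6 of 6 WT but 3 of 6 KO libraries correlated best with their own number. With the replicate block the adjusted p over both genotypes was 0.00171 for *Igfbp5*, 0.106 for *Igf2* and 0.0658 for *Igfbp3*, and that of *Igfbp7* in KO was 0.0341 (edgeR).

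Leaving out 1 library at a time moved the number of members at an unadjusted p under 0.05 between 2 and 4 for PCs over VMs in WT. For KO over WT in PCs, in VMs and over both cell types, and for the difference of the KO effects, it lay between 0 and 1 in each case. Without a filter on low counts it was 1 for KO over WT in VMs and 1 for the difference of the effects, *Igfbp7* both times. These fits also turned the sign of small log2 differences. For *Igf1r* the range was -0.68 to 0.21 for PCs over VMs in WT, -0.19 to 0.19 over both genotypes, -0.0822 to 0.82 for KO over WT in PCs, -0.0988 to 0.0546 in VMs (0.0073 with DESeq2's Wald test and 0.0086 with its size factors), -0.0331 to 0.35 over both cell types and -0.0668 to 0.79 for the difference of the effects. For KO over WT in PCs *Igfbp3* ranged from -1.03 to 0.96 and *Igfbp5* from -0.17 to 0.29, in VMs *Igf2r* from -0.0520 to 0.12, and over both cell types *Igfbp7* from -0.44 to 0.0058. The difference of the effects ranged from -0.88 to 0.0828 for *Igf1* and from -0.61 to 0.96 for *Igf2*, and PCs over VMs in KO from -0.0852 to 0.90 for *Igf1*. With 3 libraries a group and 0 to 28 counts for *Igfbp4*, depth limited what could be seen of the rarest members.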
